A study of Mus musculus with 4 samples.

Results

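The respiratory chain and ATP synthase of the mouse heart were followed through the 84 nuclear genes whose symbols name a subunit of respiratory complexes I to V. Membership was set by gene symbol alone, and no measured value entered the choice. A gene was taken when its symbol began with Nduf followed by a, b, c, s or v and a digit, was Sdha, Sdhb, Sdhc or Sdhd, or began with Uqcr, with Cox4 to Cox8 or with Atp5, and pseudogene names were left out. These are 84 of the 32285 mouse genes in the count matrices, and by name 37 belong to complex I, 4 to complex II, 8 to complex III, 18 to complex IV and 17 to complex V. Nuclei of whole hearts were sequenced from mice at postnatal day 12 in 4 libraries, 1 for each group. The mice were labelled wild type. At day 7 after birth they had received an injection of saline (control) or of AAV9-YAP5SA, and for the following 5 days their mothers were fed chow or a high-fat diet (HFD). YAP5SA is a form of YAP, the transcriptional effector of the Hippo pathway, whose inhibitory phosphorylation sites are mutated, and in this vector it is driven by the cardiac troponin T promoter, which is active in cardiomyocytes. The groups are therefore control on chow, control on HFD, YAP5SA on chow and YAP5SA on HFD, taken from the sample titles.

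Limits of these groups bear on every comparison. The control received saline and not an empty vector, so the virus and its cargo cannot be told apart. The treatment label of the YAP5SA library titled chow names the high-fat diet, and that of the control library titled HFD names chow; if those labels hold, diet and YAP5SA cannot be told apart at all. The number of hearts in a library is not given. YAP5SA on chow held Y-linked transcripts (in cardiomyocyte-like nuclei, Uty at 272 in units of CPM, defined below, against 0.343 to 0.559 in the other 3 libraries) and less Xist (8.001 CPM against 1989 to 2461), so sex was not matched between the arms.

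Complex I (NADH dehydrogenase) and complex II (succinate dehydrogenase) pass electrons to ubiquinone, complex III (cytochrome bc1) passes them on to cytochrome c, complex IV (cytochrome c oxidase) hands them to oxygen, and complex V (ATP synthase) uses the resulting proton gradient to make ATP. Most subunits are encoded in the nucleus and imported, while a small set is encoded by the mitochondrial genome; complex II has nuclear-encoded subunits alone. Heart muscle is among the tissues richest in mitochondria, and after birth cardiomyocytes raise respiratory chain genes as they turn from glucose toward fatty acids. In the same period several complex IV subunits switch to isoforms found in heart and skeletal muscle.

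The 4 libraries held 6977 to 11158 nuclei and 43408234 to 61191454 unique molecular identifiers (UMIs, each marking 1 captured transcript). Pairs of libraries shared 11 to 34 cell barcodes, at most 0.372% of the smaller library. After filters and doublet removal 6048 to 10009 nuclei remained, and clusters were named from marker genes, with the subunit genes, mitochondrially encoded genes and ribosomal protein genes left out of the clustering. The cardiomyocyte-like class held 3539 and 3000 nuclei in the chow and HFD controls and 4780 and 5071 in the chow and HFD YAP5SA libraries, with 20431041 to 28615784 UMIs. All 14 cardiomyocyte markers were detected in it. UMIs were summed over the nuclei of a class in each library and are given as CPM, the gene's counts scaled to the same total for each such sum. The chemistry reads transcript ends, so CPM was not divided by gene length and no level was compared between genes. In a summed value, fewer nuclei with a transcript and less of it per nucleus cannot be told apart. Throughout, a pair of values gives chow first and HFD second.

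Promoters of subunit genes are known for GC-rich stretches with sites for the nuclear respiratory factor NRF1, for GABP (a factor of the ETS family) and for estrogen-related receptors (ERR). The 250 bases before the annotated start, from RefSeq on GRCm38.p6, were found for 67 of the 84 genes and for 27025 genes in all. Letters were searched on both strands. GCGCATGC (NRF1) stood in 8 of the 67 subunit promoters (11.9%) and in 2.32% of all promoters. CCGGAAG (ETS) stood in 11 (16.4%, against 7.05%), and AAGGTCA (ERR) in 5 (7.46%, against 4.05%). GGAATG, a word of the TEAD factors to which YAP binds, stood in 7 (10.4%, against 12.6%), and AAGATGGCG (YY1) in none of the 67 (against 0.607%). A match shows letters in this window and is no binding site, and the words do not overlap in the sequences shown. The promoters printed here, with the words in capitals, belong in each complex to the gene of smallest p that fell in YAP5SA cardiomyocyte-like nuclei (below) and holds a word. They are Ndufs3 (chr2:90904722-90904971, minus strand), Sdhb (chr4:140961021-140961270, plus strand), Uqcrh (chr4:116075071-116075320, minus strand), Cox6b1 (chr7:30626115-30626364, minus strand) and Atp5l (chr9:44920743-44920992, minus strand).
Ndufs3: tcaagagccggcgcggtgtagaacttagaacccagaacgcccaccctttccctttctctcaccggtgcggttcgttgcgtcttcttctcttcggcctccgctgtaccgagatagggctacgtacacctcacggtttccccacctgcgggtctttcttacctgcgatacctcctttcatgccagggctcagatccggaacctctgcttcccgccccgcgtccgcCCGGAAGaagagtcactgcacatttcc
Sdhb: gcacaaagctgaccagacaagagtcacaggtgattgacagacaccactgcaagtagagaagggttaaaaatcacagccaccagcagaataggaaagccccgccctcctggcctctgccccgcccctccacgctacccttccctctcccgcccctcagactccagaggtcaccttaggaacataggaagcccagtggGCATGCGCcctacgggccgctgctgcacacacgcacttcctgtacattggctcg
Uqcrh: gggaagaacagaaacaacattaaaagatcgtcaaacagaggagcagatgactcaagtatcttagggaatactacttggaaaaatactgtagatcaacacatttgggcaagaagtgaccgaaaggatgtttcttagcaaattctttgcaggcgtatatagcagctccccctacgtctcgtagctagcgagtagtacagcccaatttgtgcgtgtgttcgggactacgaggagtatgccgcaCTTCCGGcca
Cox6b1: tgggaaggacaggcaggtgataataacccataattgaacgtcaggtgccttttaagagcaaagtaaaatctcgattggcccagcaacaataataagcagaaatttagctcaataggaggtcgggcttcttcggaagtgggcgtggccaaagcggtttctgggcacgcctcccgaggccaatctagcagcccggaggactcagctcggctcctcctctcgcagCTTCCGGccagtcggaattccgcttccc
Atp5l: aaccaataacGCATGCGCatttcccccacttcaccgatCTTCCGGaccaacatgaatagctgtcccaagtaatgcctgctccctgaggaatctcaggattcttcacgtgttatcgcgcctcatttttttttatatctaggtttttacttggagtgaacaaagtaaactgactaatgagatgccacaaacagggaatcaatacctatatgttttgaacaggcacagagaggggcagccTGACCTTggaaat
An ETS word lay 27 bases before the start in Ndufs3, 10 in Uqcrh and 28 in Cox6b1, and an NRF1 word lay 54 bases before it in Sdhb. Starts here are those of RefSeq; GENCODE vM21 starts Sdhb, Ndufs3 and Cox6b1 further upstream, so that these words lie inside its gene models. Atp5l held an NRF1 word at 240 bases, an ETS word at 212 and an ERR word at 13. Of the 16 genes with a promoter that fell, 4 held the ETS word, 2 NRF1, 2 TEAD and 1 ERR; of the 51 that did not pass the test, 7, 6, 5 and 4 held them.

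Transcripts of the subunits were lower in YAP5SA than in control cardiomyocyte-like nuclei, in every complex. Summed over the 84 genes they measured 5555 and 5557 CPM in the control libraries and 3596 and 4329.6 CPM in the YAP5SA libraries. The 2 controls were almost equal, both YAP5SA libraries lay below them, and chow was the lower of the 2. With the arms compared over both diets (2 libraries against 2, edgeR quasi-likelihood test, Benjamini-Hochberg adjustment over 16886 genes), 19 of the 83 genes tested fell at an adjusted p under 0.05 and 0 rose. Over all genes 4.38% fell and 7.92% rose. The median log2 fold was -0.53 over the members, against 0.04 over all genes, and 79 of 83 estimates were below 0. Before adjustment 48 members fell and 0 rose at p under 0.05, a cutoff at which the share of all genes was not counted. In 66 of the 84 genes both YAP5SA libraries lay below both controls, against 23.6% of all genes tested, and in 2 (Cox4i2 and Cox7a2) both lay above. Over all 32291 features (the mouse genes and 6 added sequences), tested or not, 4913 had both below and 7703 both above. Cox8c, a testis isoform, had no UMI in the class and was not tested.

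**Figure D1:**
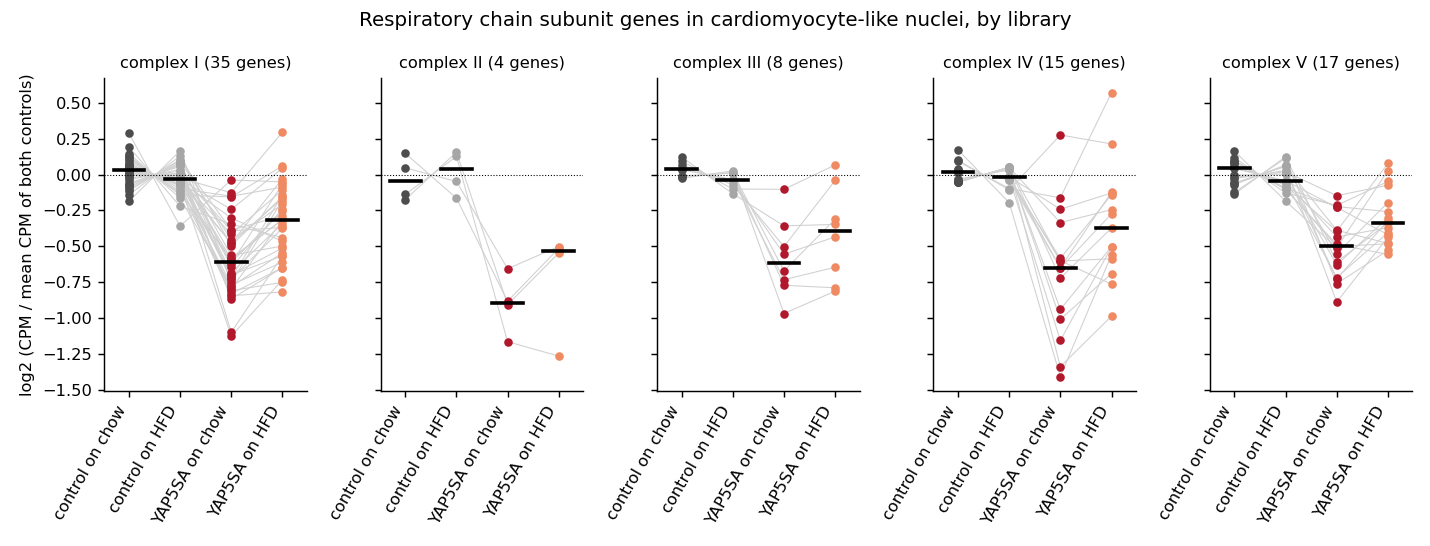
CPM of each subunit gene at a mean CPM of at least 10 in cardiomyocyte-like nuclei, on a log2 axis against the mean of both controls, by complex; a grey line joins the values of 1 gene and the black bars are medians. The YAP5SA medians lie below the control medians in all 5 panels.

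Every summed level of a complex was lower in YAP5SA on each diet. Complex I measured 1846 and 1848 CPM in control and 1189 and 1422 in YAP5SA, and 10 of its 37 genes fell, with a median log2 fold of -0.51. Complex II measured 426 and 449 CPM against 247 and 286, and 2 of 4 fell, with a median of -0.78. Complex III measured 516 and 503 CPM against 316 and 346, and 3 of 8 fell, with a median of -0.56. These medians and counts describe the lists, since no test between complexes was made. Complex IV measured 1197 and 1174 CPM against 766 and 997, and 3 of 17 fell, with a median of -0.62. Complex V measured 1570.3 and 1583 CPM against 1077 and 1279, and 1 of 17 fell, with a median of -0.50. The share of genes that passed the test was thus 27.0% for complex I and 5.88% for complex V, although their median estimates were alike.

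The number of calls moved with the libraries and clusters included. Left out 1 at a time, the libraries gave 3 (without control on HFD), 4 (without control on chow), 15 (without YAP5SA on chow) and 29 (without YAP5SA on HFD) genes that fell. Over all genes those fits had 302 of 17879, 476 of 17911, 695 of 17558 and 1026 of 17196 fall, so the members' count moved with the number of calls. Without clusters 19 and 26, which were nearly absent from control (under 1% of their nuclei), 1 of 82 fell, Cox7b, with a median log2 fold of -0.34 and 31 members falling at an unadjusted p under 0.05. In that fit 61 of all 16254 genes fell at an adjusted p under 0.05, and their share at the unadjusted cutoff was not counted. Markers of cardiomyocytes and macrophages parted by arm. The 14 cardiomyocyte markers summed to 54226 to 57126 CPM in control and 34138 to 35739 in YAP5SA. The 10 macrophage markers summed to 24.7 to 30.9 and 42.9 to 66.1. Other lists overlapped between the arms. The 11 fibroblast markers summed to 292 to 436 and 225 to 303, and the 11 vascular endothelial markers to 96.5 to 134 and 93.6 to 104. The 5 erythroid markers summed to 112 and 197 CPM in control and 180 and 84.6 in YAP5SA. None of these markers was at 0. Their part in the fall of the subunits was not tested.

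In complex I the genes that fell included subunits of the arm that binds NADH and ubiquinone. Ndufs3, a core subunit of the ubiquinone-binding module whose promoter is printed above, measured 93.5 and 92.1 CPM in control and 52.2 and 59.2 in YAP5SA (log2 fold -0.81, SE 0.158, edgeR adjusted p = 0.0253). Ndufv2, an iron-sulfur subunit of the NADH-binding module, measured 112 and 121 CPM against 63.7 and 74.0 (log2 fold -0.83, SE 0.166, adjusted p = 0.0272). Ndufs7, which carries the last iron-sulfur cluster before ubiquinone, measured 27.6 and 25.01 CPM against 14.6 and 14.9 (log2 fold -0.90, SE 0.184, adjusted p = 0.0291). In all of these the libraries of the 2 arms were well apart. Ndufs1, the largest iron-sulfur subunit, measured 220.5 and 217 CPM against 135 and 148 (log2 fold -0.71, SE 0.155, adjusted p = 0.0361). Other core subunits were lower in both YAP5SA libraries without passing the test. Ndufv1, which holds the flavin that accepts electrons from NADH, measured 43.8 and 37.5 CPM against 23.4 and 32.6 (adjusted p = 0.0914), and Ndufs8, an iron-sulfur subunit, 8.29 and 8.08 against 5.58 and 6.57 (adjusted p = 0.211).

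Accessory subunits of complex I, which surround the catalytic core, ranged from the complex's lowest estimate to its highest. Ndufb10, of the membrane arm, measured 46.3 and 42.4 CPM in control and 20.3 and 26.6 in YAP5SA (log2 fold -0.997, SE 0.183, edgeR adjusted p = 0.0212). Ndufa9, which sits near the ubiquinone site, measured 49.9 and 47.6 CPM against 27.8 and 29.0 (log2 fold -0.85, SE 0.167, adjusted p = 0.0262). Ndufb3, Ndufb8 and Ndufv3, also accessory, fell at log2 folds of -0.89, -0.68 and -0.76; Ndufb8 overlaps the annotated gene Gm20538 on the same strand, so its reads may be shared. Ndufb11, encoded on the X chromosome, had the highest estimate, with 19.6 and 18.99 CPM against 17.7 and 23.7 (log2 fold 0.02, adjusted p = 0.964). Its libraries overlapped between the arms. Ndufa4, named for complex I but now assigned to complex IV, measured 72.3 and 84.04 CPM against 59.8 and 64.1 (log2 fold -0.41, adjusted p = 0.176). Its paralogue Ndufa4l2 stayed between 0.430 and 0.685 CPM in cardiomyocyte-like nuclei.

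All 4 genes of complex II, the enzyme shared with the citric acid cycle, had both YAP5SA libraries below both controls. Sdhb (chromosome 4, 140961203 to 140979193), the iron-sulfur subunit, measured 63.2 and 76.0 CPM in control and 31.0 and 28.9 in YAP5SA (log2 fold -1.29, SE 0.202, edgeR adjusted p = 0.0133), the lowest estimate among the 83 genes tested. Sdha, the flavoprotein that oxidises succinate, measured 200.1 and 187 CPM against 123 and 137 (log2 fold -0.65, SE 0.154, adjusted p = 0.0431). The membrane anchors lay just past the threshold. Sdhc measured 122 and 153 CPM against 73.2 and 94.0 (log2 fold -0.80, SE 0.201, adjusted p = 0.0503), and Sdhd 41.0 and 33.0 against 20.1 and 25.9 (log2 fold -0.76, SE 0.193, adjusted p = 0.0511).

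In complex III the core proteins fell and the catalytic iron-sulfur subunit did not pass the test. Uqcrc1 (chromosome 9, 108936633 to 108949623), a core protein of the matrix side, measured 87.9 and 91.1 CPM in control and 45.7 and 50.9 in YAP5SA (log2 fold -0.97, SE 0.162, edgeR adjusted p = 0.0161). Uqcrc2, its partner, measured 149 and 151 CPM against 88.0 and 86.9 (log2 fold -0.85, SE 0.163, adjusted p = 0.0243). Uqcrh, the hinge protein next to cytochrome c1, measured 110.4 and 105 CPM against 64.9 and 68.9 (log2 fold -0.76, SE 0.156, adjusted p = 0.0294). The 2 libraries of an arm, which differ in diet, were close in these 3 genes and the arms did not overlap. Uqcrfs1, the Rieske iron-sulfur subunit, measured 28.8 and 29.4 CPM against 18.2 and 23.4 (log2 fold -0.56, adjusted p = 0.103). Uqcr10, a small subunit, had 22.5 and 19.6 CPM against 19.6 and 22.1 (log2 fold -0.09, adjusted p = 0.790), so its arms overlapped.

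Complex IV held the gene of smallest p and the 2 members, Cox4i2 and Cox7a2, with both YAP5SA libraries above both controls. Cox7b (chromosome X, 106015700 to 106022450), a small structural subunit, measured 219 and 234 CPM in control and 89.6 and 114 in YAP5SA (log2 fold -1.23, SE 0.174, edgeR adjusted p = 0.00935). It is X-linked, and the part of the unmatched sex of the libraries in its fall was not tested. Cox6b1, which faces the intermembrane space, measured 73.8 and 79.5 CPM against 50.5 and 45.1 (log2 fold -0.75, SE 0.187, adjusted p = 0.0495). Cox7a2l, a factor that joins complexes III and IV in supercomplexes, measured 43.7 and 42.8 CPM against 28.4 and 28.8 (log2 fold -0.67, SE 0.170, adjusted p = 0.0524). Cox4i1, the general form of subunit 4, measured 149 and 146 CPM against 93.9 and 135 (adjusted p = 0.171), and overlaps Gm20388 on the same strand. Cox7c, another small subunit, had 153 and 134 CPM against 129 and 214 (log2 fold 0.16, SE 0.227, adjusted p = 0.685). It was the lowest of the 4 libraries in YAP5SA on chow and the highest in YAP5SA on HFD.

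In complex V 1 gene passed the test, while all 17 estimates were below 0. Atp5l, subunit g of the membrane part, measured 124 and 146 CPM in control and 79.5 and 93.3 in YAP5SA (log2 fold -0.72, SE 0.179, edgeR adjusted p = 0.0489). Of the peripheral stalk, Atp5f1 and Atp5h lay near the threshold and Atp5j and Atp5o did not. Atp5f1 measured 141 and 153 CPM against 79.5 and 109 (log2 fold -0.73, adjusted p = 0.0515), and Atp5h 87.4 and 81.5 against 51.3 and 63.8 (log2 fold -0.63, adjusted p = 0.0546). Atp5j had 63.7 and 57.6 CPM against 46.1 and 64.0 (log2 fold -0.22, adjusted p = 0.478), and Atp5o 48.7 and 41.1 against 38.6 and 43.4 (log2 fold -0.20, adjusted p = 0.479), with overlapping arms. No gene of the catalytic head described here passed the test. Atp5a1, the alpha subunit, measured 284 and 313 CPM against 204 and 261 (adjusted p = 0.155), Atp5b, the beta subunit, 205 and 192 against 147 and 153 (adjusted p = 0.0982), and Atp5c1, the gamma subunit of the rotor shaft, 199 and 199.9 against 129 and 162 (adjusted p = 0.0839). The ring of c subunits is encoded by 3 genes with the same mature protein, and their levels did not move alike. Atp5g3 measured 91.6 and 79.6 CPM against 61.1 and 58.2 (log2 fold -0.59, adjusted p = 0.0730), Atp5g1 49.5 and 38.9 against 31.0 and 45.0 (log2 fold -0.30, adjusted p = 0.4003), and Atp5g2 56.2 and 57.7 against 51.4 and 54.1 (log2 fold -0.18, adjusted p = 0.507). None of these 3 passed the test, and the differences among them were not tested.

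**Figure D2:**
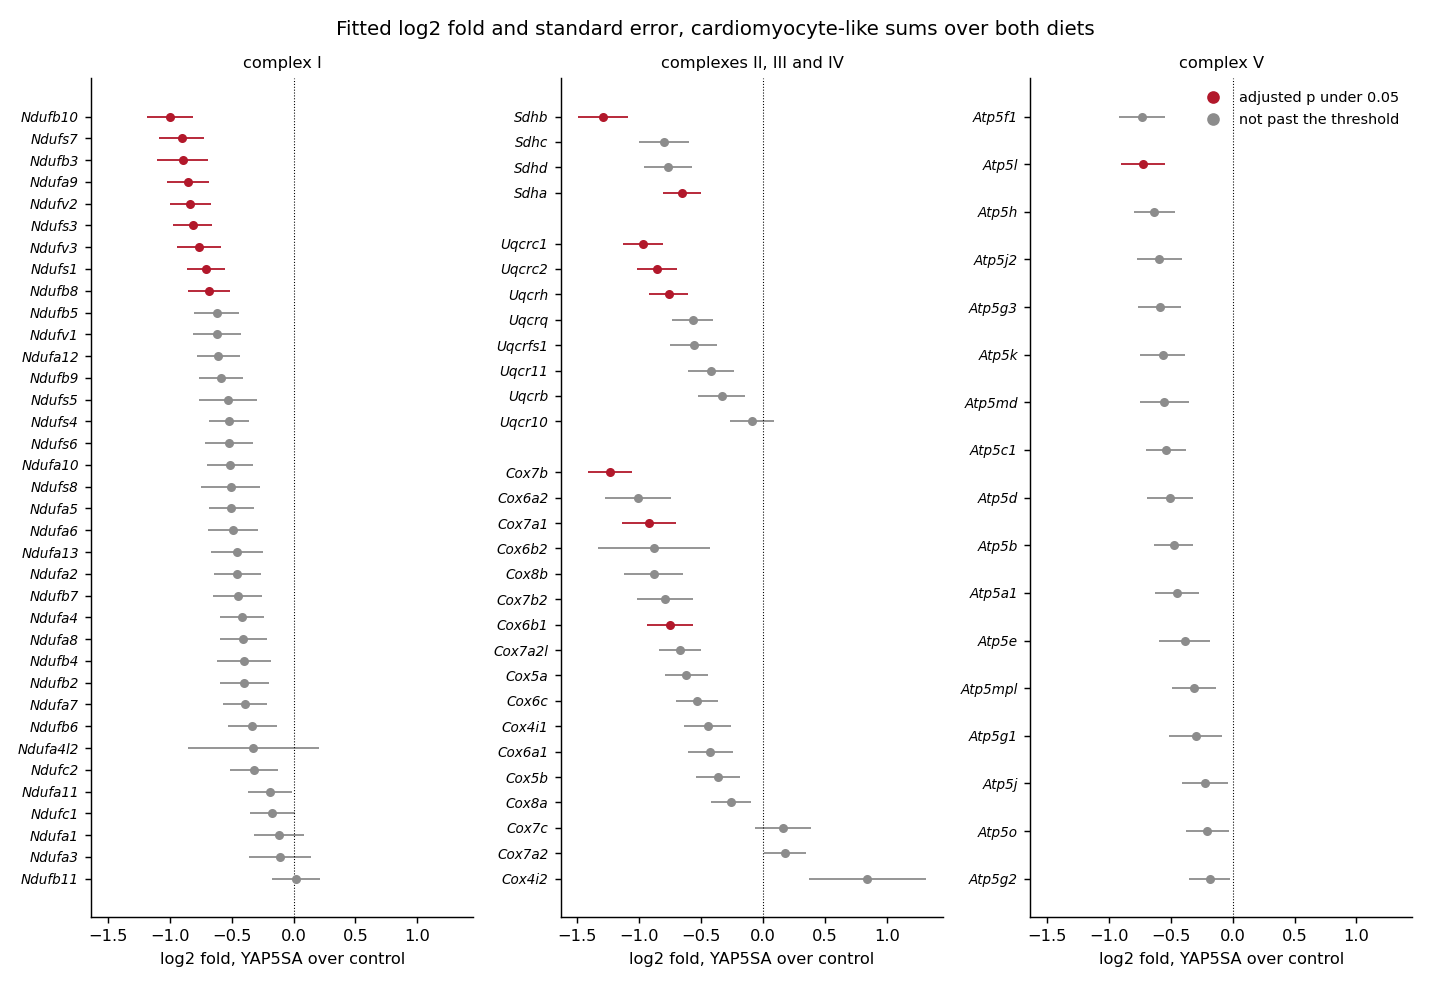
Fitted log2 fold of YAP5SA over control with its standard error (bars) for subunit genes tested in cardiomyocyte-like sums, with 1 of complex I not shown, ordered within each complex; red points have an edgeR adjusted p under 0.05. The red points are all left of 0, and 4 points, Ndufb11, Cox7c, Cox7a2 and Cox4i2, lie right of it.

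The muscle isoforms of complex IV made up a smaller share of their pairs in YAP5SA. Cox7a1, the heart and skeletal muscle form, fell from 13.4 and 14.2 CPM in control to 6.86 and 8.56 in YAP5SA (log2 fold -0.92, SE 0.216, edgeR adjusted p = 0.0424), while Cox7a2, the form of most other tissues, had 61.6 and 53.4 CPM against 69.6 and 66.6 (log2 fold 0.18, SE 0.172, adjusted p = 0.543). Cox7a1 therefore took 17.9% and 21.0% of the pair's UMIs in control and 8.98% and 11.4% in YAP5SA, and the 95% binomial intervals of the control libraries (16.2% to 19.8% and 18.9% to 23.3%) lay above those of the YAP5SA libraries (7.78% to 10.3% and 10.1% to 12.8%). Shares compare UMIs within a library and are no ratio of molecules, and their intervals cover counting error alone.

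The other pairs had the same order in chow and closer values in HFD. Cox6a2, the muscle form of subunit 6a, had 63.7 and 49.3 CPM in control and 21.3 and 38.3 in YAP5SA (log2 fold -1.01, SE 0.269, edgeR adjusted p = 0.0589), and its counterpart Cox6a1 58.9 and 56.2 against 38.4 and 52.2 (log2 fold -0.43, adjusted p = 0.175). Its share was 51.9% and 46.8% in control and 35.7% and 42.3% in YAP5SA. Cox8b, the muscle form of subunit 8, had 19.3 and 18.7 CPM against 8.52 and 13.4 (log2 fold -0.88, SE 0.238, adjusted p = 0.0610), and Cox8a 62.1 and 60.7 against 51.9 and 56.2 (log2 fold -0.26, adjusted p = 0.333). Its share was 23.7% and 23.5% in control and 14.1% and 19.2% in YAP5SA. In each of these pairs both YAP5SA libraries lay below both controls, with YAP5SA on chow the lowest. Without clusters 19 and 26 the Cox7a1 share was 12.3% and 13.1% in YAP5SA, that of Cox6a2 38.4% and 44.9%, and that of Cox8b 16.0% and 20.2%.

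Among the remaining paralogues of complex IV, Cox7b2 had 12.9 and 13.5 CPM in control and 6.86 and 9.30 in YAP5SA (log2 fold -0.79, edgeR adjusted p = 0.0713). Cox6b2, known as a testis form, had 3.82 and 1.81 CPM against 1.39 and 1.82 (adjusted p = 0.247). Cox4i2, known from lung and smooth muscle, had 0.430 and 0.538 CPM against 0.918 and 0.909 (log2 fold 0.84, SE 0.471, adjusted p = 0.288). That is 10 and 11 UMIs in control and 25 and 26 in YAP5SA.

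**Figure D3:**
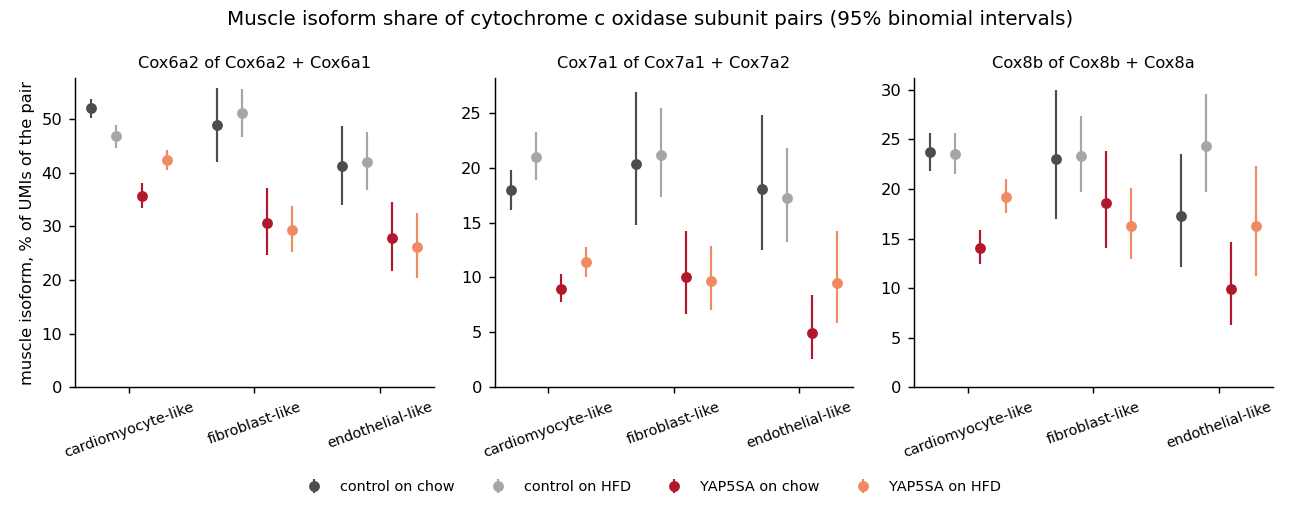
Share of the muscle isoform among the UMIs of its pair, in percent, in 3 classes of nuclei and 4 libraries; bars are 95% binomial intervals. In cardiomyocyte-like nuclei the YAP5SA points lie below the control points in all 3 pairs, and in the other classes all 3 pairs have the same order.

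Taken diet by diet, with 1 library against 1 and no test, the median difference in CPM was larger on chow, an order that depended on the scaling. For this, 79 members with an average of 10 CPM or more were used. On chow their median log2 fold was -0.62 (all genes -0.06), and 78 of the 79 were lower in YAP5SA, against 4559 of 8471 genes. Of the 79, 7 were at least 2-fold lower, against 593 of 8471 genes (7%). The 7 were Cox6a2, Cox7b, Ndufb10, Cox8b, Ndufb3, Sdhb and Sdhd. On HFD the median was -0.35 (all genes 0.13), and 66 were lower, against 3438 of 8471 genes. There 2 of the 79 were at least 2-fold lower (Sdhb and Cox7b), against 307 of 8471 genes (3.62%). These 2-fold counts do not set the members apart from all genes. With TMM scaling (trimmed mean of M values) the medians were -0.58 on chow and -0.53 on HFD (all genes -0.02 and -0.06). At that scaling 4 and 3 members were at least 2-fold lower, and all genes were not counted. With DESeq2 size factors the medians were -0.58 and -0.59, and the order was lost. The median of the members lay -0.56 from that of all genes on chow and -0.48 on HFD, distances that a scaling factor cannot move.

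Between diets the control libraries had close levels of the subunits. Between the control libraries the median log2 fold of HFD over chow was -0.05 (all genes -0.08), and 0 members were at least 2-fold lower, against 0.696% of all genes. The summed level differed by a log2 fold of less than 0.01 (interval -0.01 to 0.01). Between the YAP5SA libraries the median was 0.27 (all genes 0.07), and 11 of 79 were lower, against 3534 of 8471 genes. Of these members 0 were at least 2-fold lower, against 1.04% of all genes. The summed levels, 3596 and 4329.6 CPM, stood at a log2 fold of 0.27 (0.26 to 0.28, counting error). In cardiomyocyte-like clusters with at least 50 nuclei in every library, the YAP5SA median was -0.01. In the edgeR fit with arm and diet, which had 1 residual degree of freedom, 0 of 83 members passed for diet, also at an unadjusted p under 0.05, and 0% of the 16886 genes passed (704 at an unadjusted p under 0.05). DESeq2 also called 0 members, with 20 genes higher and 3 lower on HFD over all. Such a result does not show that diet had no effect.

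The cardiomyocyte-like class was a mixture of clusters with unlike subunit levels. Cluster 4, the largest in control, had summed levels of 5731 and 5832 CPM in control and 5075 and 5520.1 in YAP5SA. That is a log2 fold of -0.18 (-0.20 to -0.15) on chow and -0.08 (-0.12 to -0.04) on HFD. Clusters 5, 6 and 7 stood at -0.26, -0.22 and -0.19 on chow and at -0.11, -0.18 and -0.04 on HFD; the last interval reached past 0 (-0.13 to 0.05), with 33 control nuclei. Within these clusters, then, the differences were smaller than the -0.63 and -0.36 of the whole class.

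In YAP5SA, summed levels were lower in clusters 3, 19, 26 and the atrial cluster 23. In cluster 3, led by mitosis genes such as Anln and Ect2, the summed level was 5072 and 4754 CPM in control and 2988 and 2959 in YAP5SA (log2 fold -0.76, -0.82 to -0.71, on chow and -0.68, -0.75 to -0.62, on HFD), from 73 to 244 nuclei. A finer clustering parted nuclei led by mitosis genes by arm. There, a cluster with Ect2 and Esco2 held 192 and 105 control and 9 and 7 YAP5SA nuclei. Another, with Ect2 and Anln, held 0 control and 279 and 172 YAP5SA nuclei. The part of this in the difference within cluster 3 was not tested. Cluster 19 had 3229 and 3507 CPM in YAP5SA, with 1152 and 662 nuclei there and 0 and 1 in control. Cluster 26 had 2410.1 and 2213 CPM, with 1029 and 593 nuclei and 0 in control. Clusters 19 and 26 together carried less of the cardiomyocyte markers than the remaining cardiomyocyte-like nuclei. The giant sarcomere protein gene Ttn stood at 7217 CPM against 17937, Ryr2, the calcium release channel, at 4233 against 12228, and Myh6, the alpha myosin heavy chain, at 736 against 4811. Endothelial-like nuclei had 578, 486 and 272 CPM of these genes. Tnni3, another of the markers, stood at 82.4 CPM in clusters 19 and 26, 319 in the remaining nuclei and 61.8 in endothelial-like nuclei. Of the 14 cardiomyocyte markers, 10 passed the limits used for naming in cluster 19 and 5 in cluster 26. The name of cluster 26 thus rests on few markers. In the atrial cluster 23 the summed level on HFD was 4966 CPM in control and 3818 in YAP5SA (log2 fold -0.38). Clusters were drawn from the same nuclei, so their levels carry no test.

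**Figure D4:**
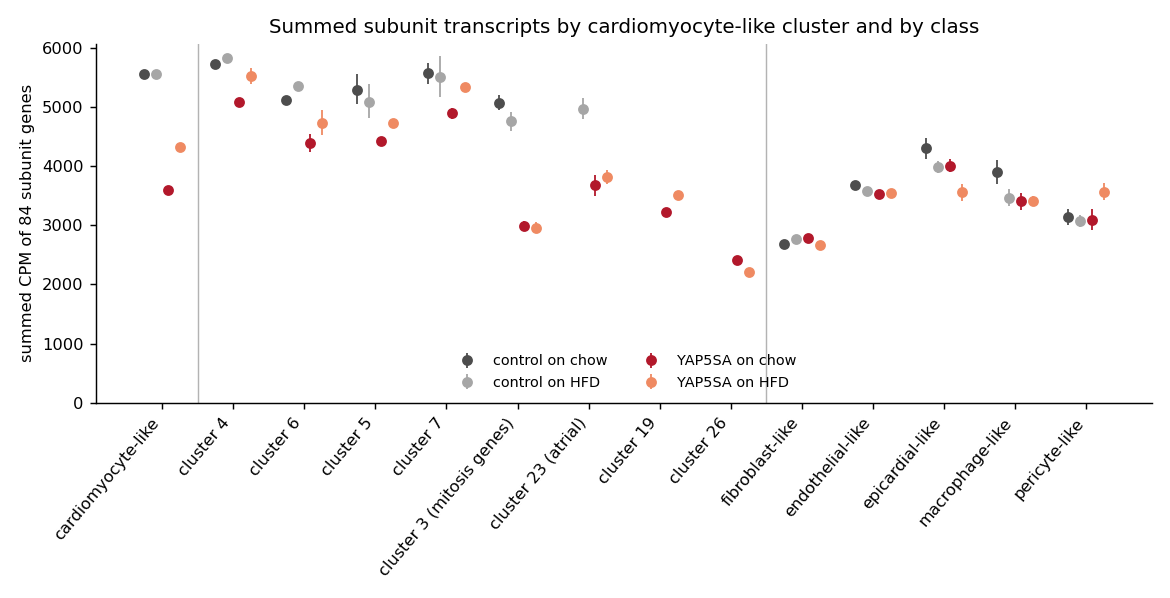
Summed CPM of the 84 subunit genes in the cardiomyocyte-like class, in its clusters and in other classes, by library; bars are 95% intervals of counting error and a missing point stands for under 30 nuclei. Clusters 19 and 26 have points of the YAP5SA libraries alone, between 2213 and 3507 CPM, and the classes right of the second line lie between 2661 and 4299.9 CPM in both arms.

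Classes in which the vector's promoter is not known to be active showed few calls. In fibroblast-like nuclei the summed level was 2688 and 2765 CPM in control and 2778 and 2661 in YAP5SA, and in endothelial-like nuclei 3683 and 3571 against 3535 and 3539. In fibroblast-like nuclei 3 of 82 members fell, against 5.83% of all genes, and 1 rose, against 7.23%. The arms filled this class from different clusters: cluster 0 held 743 and 1282 control and 232 and 481 YAP5SA nuclei, cluster 1 held 44 and 79 against 722 and 1216, and cluster 10 held 250 and 724 against 17 and 83. Cox7b fell from 75.5 and 72.1 CPM to 46.1 and 46.1 (log2 fold -0.80, SE 0.147, edgeR adjusted p = 0.00825), Cox6a2 from 21.1 and 24.3 to 12.4 and 13.5 (log2 fold -0.93, SE 0.201, adjusted p = 0.0163), and Ndufs5, a complex I subunit, from 40.6 and 44.8 to 29.6 and 32.6 (log2 fold -0.58, adjusted p = 0.0452). Cox7c rose from 84.3 and 83.9 CPM to 119.5 and 139 (log2 fold 0.50, SE 0.136, adjusted p = 0.0410). In endothelial-like nuclei Cox7b was the 1 member of 80 that fell (1.54% of all genes fell and 0.859% rose; cluster 8 held most nuclei of control on chow and cluster 11 most of YAP5SA), from 92.1 and 87.4 CPM to 53.9 and 55.7 (log2 fold -0.74, SE 0.146, adjusted p = 0.0405). With each library left out in turn, Cox7b stayed called in fibroblast-like nuclei in every fit, Cox6a2 was lost without control on HFD, Cox7c was lost without either control or without YAP5SA on HFD, and Ndufs5 was lost in all 4. The call of Cox7b in endothelial-like nuclei was lost without either control or without YAP5SA on HFD. The median log2 fold of the members was -0.16 in fibroblast-like nuclei (all genes 0.009), with 66 of 82 estimates below 0. In endothelial-like nuclei it was -0.09 (all genes 0.01), with 52 of 80 below 0.

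Cardiomyocyte transcripts were present in those classes and moved with the arm. The 14 cardiomyocyte markers, none at 0, summed to 2219 to 2460.2 CPM in the control and 1407 to 1480.3 CPM in the YAP5SA fibroblast-like nuclei, and to 2929 to 3818 against 1439 to 1512 CPM in endothelial-like nuclei. The share of the muscle isoform Cox6a2 in its pair was 48.8% and 51.1% in control and 30.6% and 29.3% in YAP5SA fibroblast-like nuclei (51.9% and 46.8%, and 35.7% and 42.3%, in cardiomyocyte-like nuclei). The part of such RNA in the falls of Cox7b and Cox6a2 there was not tested.

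The highest level of a subunit was found in cardiomyocyte-like nuclei for more genes in control than in YAP5SA. Among 6 classes (cardiomyocyte-, fibroblast-, endothelial-, epicardial-, macrophage- and pericyte-like), 43 of 83 genes had their highest mean level in cardiomyocyte-like nuclei in control and 23 in YAP5SA. Epicardial-like nuclei held the highest level of 24 genes in control and 31 in YAP5SA. Pericyte-like nuclei held that of 2 and 10, endothelial-like of 8 and 10, and macrophage-like of 6 and 9. The same count over all genes was not made. Summed over the members, cardiomyocyte-like nuclei stood above these classes in control, at 5555 and 5557 CPM against 2688 to 4299.9. In YAP5SA on chow the 3596 CPM of cardiomyocyte-like nuclei lay below the 4008 of epicardial-like nuclei. In YAP5SA on HFD cardiomyocyte-like nuclei, at 4329.6 CPM, lay above the 5 other classes, of which pericyte-like nuclei were the highest at 3568. Neighbouring classes in this order, such as endothelial- and macrophage-like nuclei (3404 to 3898 CPM over both), overlapped between libraries.

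Ndufa4l2 and Cox4i2, each a paralogue of another subunit gene, had their highest level in pericyte-like nuclei among the classes compared. Smooth muscle-like nuclei, 40 to 110 in a library, were not among these classes. Ndufa4l2 measured 97.2 and 70.2 CPM in control and 91.2 and 92.3 in YAP5SA pericyte-like nuclei, and at most 8.53 CPM in any library of the other 5 classes. Cox4i2 measured 61.1 and 67.5 CPM in control and 55.8 and 73.9 in YAP5SA pericyte-like nuclei, and at most 5.14 CPM in the other 5 classes. Cox4i2 made up 46.3% and 48.1% of the UMIs of the pair with Cox4i1 there in control and 34.9% and 42.3% in YAP5SA, with intervals from 23.3% to 56.8%, so the arms were not apart beyond counting error. These levels rest on 124 to 251 nuclei and on 22 to 77 UMIs of Cox4i2 per library. Neither gene served to cluster or to name the class. Cox7b2 had the reverse pattern, with 6.86 to 13.5 CPM in cardiomyocyte-like nuclei and at most 2.66 in the other 5 classes. Cox6b2 reached 20.4 and 18.3 CPM in control and 7.94 and 4.46 in YAP5SA epicardial-like nuclei.

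Genes that build, feed or regulate the chain were read in the same cardiomyocyte-like fit. Of 54 assembly factors tested over the 5 complexes, 8 fell and 0 rose, beside 4.38% and 7.92% of all genes. For complex I these were Ndufaf6 (log2 fold -0.95, edgeR adjusted p = 0.0406), Nubpl, which delivers iron-sulfur clusters (log2 fold -1.01, adjusted p = 0.0205), and Ecsit (log2 fold -0.70, adjusted p = 0.0478), 3 of 17. For complex II Sdhaf2, which flavinates Sdha, lay at the threshold (log2 fold -0.72, 1 of 4). For complex III Lyrm7, a chaperone of the Rieske protein (log2 fold -0.89, adjusted p = 0.0336), and Uqcc1 (log2 fold -0.67, adjusted p = 0.0439) fell, 2 of 6. For complex IV Cox10, of heme a synthesis (log2 fold -0.69, adjusted p = 0.0389), and Coa7 (log2 fold -0.89, adjusted p = 0.0478) fell, 2 of 23, and for complex V 0 of 4 fell. The list medians were -0.14, -0.62, -0.22, -0.31 and -0.25 from complex I to V, beside -0.51, -0.78, -0.56, -0.62 and -0.50 for the subunits.

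Coenzyme Q and cytochrome c carry electrons between the complexes. Of 13 genes of coenzyme Q synthesis 3 fell and 0 rose, beside 4.38% and 7.92% of all genes. Coq5, a methyltransferase of the pathway, measured 76.5 and 76.8 CPM in control and 40.2 and 34.2 in YAP5SA (log2 fold -1.11, SE 0.194, edgeR adjusted p = 0.0183). Coq10a (log2 fold -1.11, adjusted p = 0.0240) and Coq9 (log2 fold -0.84, adjusted p = 0.0296) also fell. The list was mixed: Coq8b, a kinase-like protein of the pathway, had 5.84 and 5.87 CPM in control and 9.98 and 9.89 in YAP5SA (log2 fold 0.69, adjusted p = 0.107), and Coq6 had a log2 fold of 0.12 (adjusted p = 0.785). Cycs, cytochrome c itself, measured 69.6 and 65.0 CPM against 36.3 and 48.1 (log2 fold -0.75, SE 0.178, adjusted p = 0.0428). Ndufab1, a complex I subunit whose symbol is outside the naming rule, fell too (log2 fold -0.68, adjusted p = 0.0443), and Cyc1, cytochrome c1 of complex III, did not pass (log2 fold -0.63, adjusted p = 0.0609). Of 7 further electron donors, such as Etfdh and Gpd2, 0 passed and the median was -0.36.

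Regulators of these genes moved in part. Of 17 listed, 6 fell and 0 rose, beside 4.38% and 7.92% of all genes. Of the 17 estimates 13 were below 0, and the highest was 0.70. Esrra, which binds the ERR word, measured 140.2 and 139 CPM in control and 65.4 and 69.2 in YAP5SA (log2 fold -1.13, SE 0.158, edgeR adjusted p = 0.00926), and Ppara, the fatty acid receptor, 299.7 and 449 against 91.0 and 104 (log2 fold -2.02, SE 0.2499, adjusted p = 0.00650). Esrrg, Esrrb, Ppargc1b and Perm1 fell with log2 folds of -1.24, -0.81, -0.91 and -1.11. Nrf1, which binds the NRF1 word, had a log2 fold of -0.12 (adjusted p = 0.694). Of the 67 subunits with a promoter, the 5 holding the ERR word had a median log2 fold of -0.53 and those without it -0.52. The part of these regulators in the fall of the subunits was not tested.

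Mitochondrially encoded genes leaned down less than the nuclear-encoded subunits, and cytosolic ribosomal protein genes leaned up. The 13 mitochondrially encoded subunit genes summed to 1358 and 1284 CPM in control and 1329.7 and 1112 in YAP5SA. Of these, 0 passed the test and 12 had estimates below 0, with a median log2 fold of -0.18 (all genes 0.04). The median share of such UMIs per nucleus was 0.102% and 0.0929% in control and 0.0918% and 0.0747% in YAP5SA. In endothelial-like nuclei it was 2.28% and 2.03% in control and 1.92% and 1.41% in YAP5SA. Nuclei were sequenced, and how such reads came with them was not tested. The 84 cytosolic ribosomal protein genes summed to 2265 and 2177 CPM in control and 3485 and 3123 in YAP5SA; of 82 tested 4 rose (Rpl6, Rpl10a, Rps20 and Rps26), and 1 fell, beside 7.92% and 4.38% of all genes, so the calls set the list no higher than all genes. Their median log2 fold was 0.55. The gene that fell was Rpl3l, a paralogue used in heart and skeletal muscle, from 46.9 and 46.7 CPM to 11.3 and 14.4 (log2 fold -1.94, SE 0.186, edgeR adjusted p = 0.00302).

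**Figure D5:**
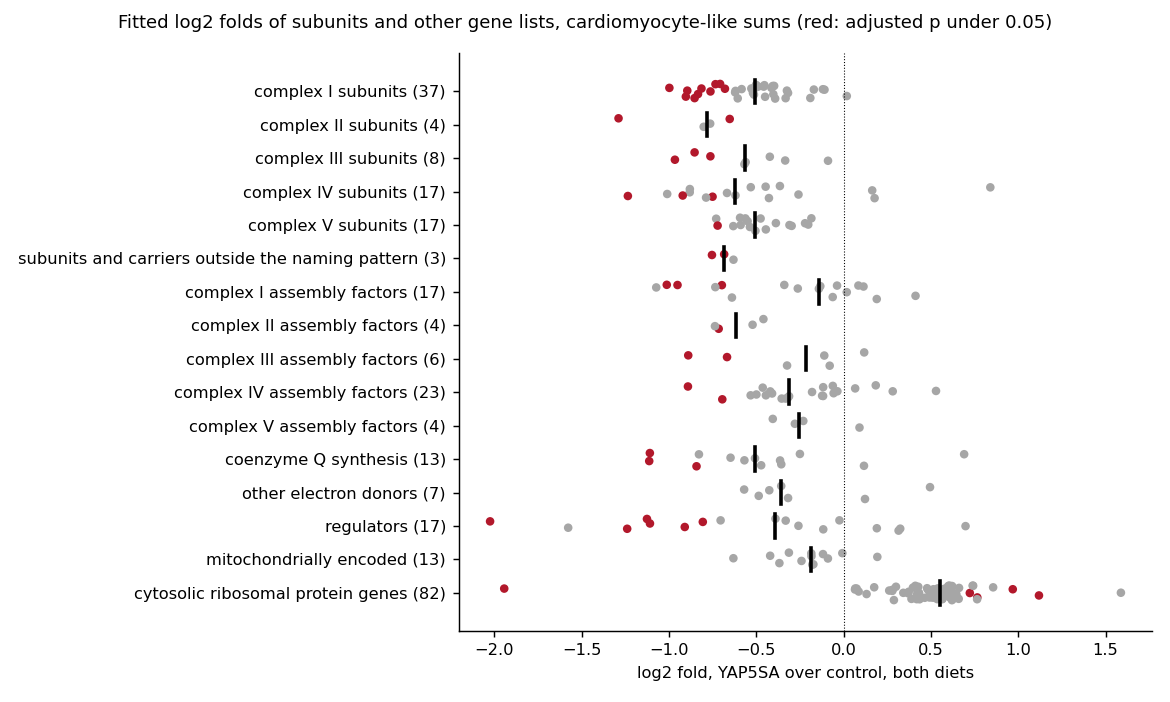
Fitted log2 fold of YAP5SA over control in cardiomyocyte-like sums for the subunits of each complex and for other gene lists, with the number tested in brackets; each point is a gene, red points have an edgeR adjusted p under 0.05 and black bars are medians. The subunit medians lie between -0.78 and -0.50, and that of the ribosomal protein genes at 0.55.

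Calls are given here by gene span, with no test between spans. Of the 58 members whose gene spans under 10 kb, 9 fell (15.5%, against 3.19% of all protein-coding genes of that span), and of the 21 members of 10 to 30 kb, 9 fell (42.9%, against 4.01%). Of the 2 members of 30 to 100 kb 1 fell, and of the 2 over 100 kb 0 fell. Over the 83 members the log2 fold had a Spearman correlation of -0.30 with gene span and of -0.23 with mean CPM, given as descriptions of genes that share libraries. The folds on chow and on HFD, which come from separate libraries, had a Spearman correlation of 0.57 over the 83 members.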

How the data were processed

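Nuclei of mouse hearts were profiled in 4 libraries with 10x 3′ chemistry, and the authors deposited count matrices of UMIs per gene and barcode, made with Cell Ranger 7.1.0 on mm10 per the submitters' processing notes. The counts are raw. From there, nuclei with at least 500 genes and at most 5% mitochondrial UMIs were kept (432 to 748 barcodes failed in a library). Scrublet doublets were removed, by its automatic call where that worked (4.51% and 6.68%) and otherwise by the highest scores at the rate usual for the loading (5.10% and 6.93%). Nuclei were clustered with scanpy 1.11.5 (3000 variable genes, 30 components, 15 neighbours, Leiden resolution 1; 27 clusters, of which 3 stayed unnamed), without subunit, mitochondrial, ribosomal protein, Xist, Tsix and Y-linked genes and the added vector sequences. A cluster was called "-like" a cell type from listed markers, with limits on those markers set after seeing the data.

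UMIs were summed per library and class. The test was edgeR 4.0.16's robust quasi-likelihood test with TMM factors (R 4.3.3), with genes kept by filterByExpr and Benjamini-Hochberg adjustment over all genes kept. Nothing says whether a library holds 1 heart or several, so p-values measure the spread between these libraries. Comparisons of 1 library with 1 used CPM, a prior count of 0.5, a floor of a mean of 10 CPM and exact binomial 95% intervals, with no p. The fit was checked on simulated counts. Alternatives were DESeq2 1.42.0, other filters, scalings, clusterings and sets of clusters, and the leaving out of each library. Those on the clusters nearly absent from control, on the atrial cluster and on all barcodes were chosen after seeing the data. The members, gene lists and tests were chosen with earlier results of these data known.

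Named with values are paralogues, core subunits and, per complex, the 3 genes of smallest p and those of highest and lowest fold. The values of 1 core subunit are not reported here, although it is counted in the totals. Cox7c, Ndufa3, Ndufb3, Ndufb8, Ndufs5, Ndufv3 and Atp5j were named after their values were seen, as were genes of other lists. The ribosomal protein list was trimmed of ribosomal protein kinases and a binding protein that its naming pattern took; with them 92 genes were tested, 4 rose and 2 fell, with a median of 0.53. Gene positions are from GENCODE vM21 on mm10. Many subunit genes have processed pseudogenes, so part of their reads may be uncertain. Promoters are from RefSeq on GRCm38.p6.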

Additional observations from a re-analysis of the deposited data

Results flagged for a closer look

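In 4 genes the arms differed in opposite directions on the 2 diets, with counting intervals on opposite sides of 0. The log2 fold of YAP5SA over control, 1 library against 1, was -0.33 on chow and 0.31 on HFD for Ndufa3, an accessory subunit of complex I. It was -0.25 and 0.67 for Cox7c, -0.67 and 0.21 for Atp5g1, and -0.47 and 0.15 for Atp5j, a subunit of the peripheral stalk of complex V. The difference between diets was not tested, since each group is 1 library. With TMM scaling the HFD values were 0.12, 0.49, 0.03 and -0.03, so Atp5j no longer changed direction. The same shift takes the lower HFD bounds of Ndufa3 and Atp5g1, 0.087 and 0.083 in CPM, below 0, which leaves Cox7c as the gene with intervals on opposite sides of 0. Without clusters 19 and 26 they were 0.41, 0.82, 0.38 and 0.37.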

How the results depend on the processing

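The count of members that fell in cardiomyocyte-like nuclei, 19 of 83, was 11 without TMM factors, 1 without clusters nearly absent from control and 1 over all deposited barcodes with no class (Cox7b in both), and 3 to 29 when a library was left out; an arm with 1 library is then assumed to vary like the other. Over all genes 457 of 16886, 61 of 16254 and 129 of 20209 fell in the first 3 of these. With diet as a term it was 13 (675 of 16886 genes fell), of which 11 were among the 19. Cox7a1, Sdha and Ndufs1 were among the calls lost. Under DESeq2 it was 26 (1103 of 25063 genes fell), and all 19 genes remained. Sdhb and Cox7b remained in all 4 fits that left out a library. No member rose under any alternative run. Of the 43 named members' values under 16 settings, 560 of 685 stayed on their side of the threshold, 89 lost a call, 36 gained one and 0 calls reversed.

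In fibroblast-like nuclei 2 members fell and 0 rose with DESeq2, beside 787 and 866 of 24255 genes. In endothelial-like nuclei 0 members fell with DESeq2, with a diet term and with the stricter or looser nucleus filter. Over all genes 236 of 22219, 226 of 13155, 0 of 8368 and 135 of 13658 fell in these fits. On chow the median of -0.62 was -0.37 in clusters shared by all libraries and -0.32 without clusters nearly absent from control. The shared clusters, 3, 4 and 6, were summed, and their mix differed by arm. On chow cluster 3 held 122 control and 244 YAP5SA nuclei, and cluster 4 held 2798 and 670. On HFD the median of -0.35 was -0.53 with TMM, -0.59 with DESeq2 size factors and -0.14 without those clusters. The HFD over chow median in YAP5SA, 0.27, was 0.13 with TMM, 0.064 with DESeq2 size factors and reversed to -0.013 in shared clusters. The causes were not tested.

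In shared clusters the YAP5SA shares on chow and HFD were 38.6% and 40.2% for Cox6a2, and on HFD 9.95% for Cox7a1 and 16.3% for Cox8b. Without clusters nearly absent from control they were 38.4% and 44.9% for Cox6a2, 12.3% and 13.1% for Cox7a1, 16.0% on chow for Cox8b, and 0.441% and 0.321% for Cox4i2. No paired analysis was possible because each group is 1 library and the labels give no replicate numbers. With 2 libraries an arm, the spread limits what could be called, and intervals cover counting error alone.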
